A study of Mus musculus with 8 samples.

Results

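The time course after bilateral common carotid artery stenosis (BCAS) was described in the libraries labelled TRPA1-KO, which are 4 of the 8 RNA-seq libraries of the series. They were chosen by their labels, and comprise 1 sham library of day 14 and 1 BCAS library each of days 7, 10, and 14. In BCAS, a microcoil around each common carotid artery reduces blood flow to the brain, and sham mice had the operation with no coil. RNA came from the corpus callosum of mice aged 8 to 12 weeks, and the TRPA1-KO line, which lacks the cation channel TRPA1 in all cells, had been backcrossed to C57BL/6J for at least 10 generations. The 4 libraries labelled WT have the same operations and days, and their values are given only beside a result. Each day had 1 library, so differences between days have no replicate error and are given as a description.

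*Trpa1* was checked first. The libraries labelled TRPA1-KO held 10 (sham), 11 (day 7), 3 (day 10), and 7 (day 14) *Trpa1* reads, and those labelled WT held 1, 0, 0, and 0 in the same order. The reads thus go against the genotype labels, and whether they lie inside or outside the deleted part of the gene was not tested. Libraries are therefore named by label throughout, and no direction below is one of genotype.

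The corpus callosum is a white matter tract in which oligodendrocytes wrap axons in myelin. Astrocytes and microglia that respond to injury raise intermediate filaments, complement components, and interferon-stimulated genes. Myelin genes are among the most abundant transcripts of the tissue, and their RNA level reflects both the number of oligodendrocytes and the RNA per cell. In bulk RNA, fewer cells and less RNA per cell cannot be told apart.

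Values are read counts per gene scaled to a common library size (CPM), and a difference is that of log2(CPM + 1) between 2 libraries. A difference of at least 0.5 in either direction is called past the threshold, which is a 1.41-fold ratio for abundant genes and a larger one for scarce genes. Of 25239 gene symbols, 15069 averaged 1 CPM or more in these libraries and were compared. The 4 libraries held 9108162 to 10426966 reads. Intervals of a fold are 95% exact intervals from the reads, and cover counting error only, not the spread between mice.

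On day 7, 446 genes (2.96%) were higher than in sham and 852 (5.65%) were lower. On day 10, 368 (2.44%) were higher and 584 (3.88%) were lower. On day 14, 424 (2.81%) were higher and 461 (3.06%) were lower. The sham libraries of the 2 labels, the one pair without BCAS, differed by as much at 660 genes, with 403 (2.67%) higher and 257 (1.71%) lower in the sham library labelled TRPA1-KO. In both directions, 1298 genes were past the threshold on day 7, 952 on day 10, and 885 on day 14, against the 660 between libraries without BCAS.

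**Figure D1:**
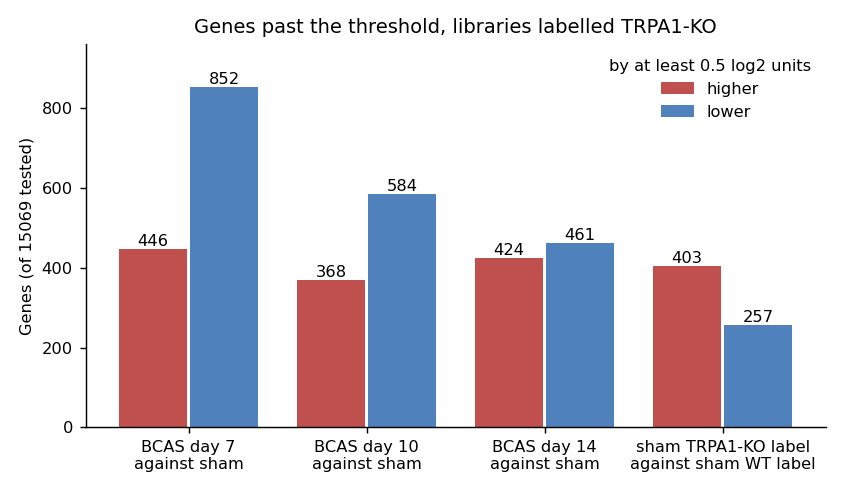
Number of genes (y axis, of 15069) at least 0.5 higher (red) or lower (blue) on the log2(CPM + 1) scale for each BCAS day against sham in libraries labelled TRPA1-KO, and between the 2 sham libraries. The lower genes go from 852 on day 7 to 461 on day 14, while the higher genes stay between 368 and 446, beside 403 between the shams.

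All 3 days share 1 sham library, so the choice of that library bears on every day. It was the highest of the 4 libraries at 3803 genes (25.2%) and the lowest at 3564 (23.7%). With the sham library labelled WT as the comparator, a choice added after seeing the data, 141 of the 446 genes higher on day 7 stayed past the threshold (31.6%), as did 167 of the 424 higher on day 14 (39.4%). Of the lower genes, 346 of 852 on day 7 (40.6%) and 138 of 461 on day 14 (29.9%) stayed. Of all 15069 genes, 400 were higher and 587 lower than the sham library labelled WT on day 7. On day 14, 489 were higher and 307 lower than it. Both comparisons use the same BCAS library, so some overlap is built in. Both sham libraries are of day 14, so the earlier BCAS days have no sham library of their own day. Differences from sham on those earlier days therefore also span a difference in time since the operation, and its part was not tested. Where a value below names no sham library, it is against the one labelled TRPA1-KO.

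Of the 9 pan-reactive astrocyte genes compared (of 13 listed), 3 were higher past the threshold on day 14 and none on days 7 and 10. Over all genes compared, 2.81% were higher on day 14. *Gfap*, the intermediate filament of astrocytes, was at 234 CPM in sham, 167 on day 7, 169 on day 10, and 427 on day 14. It was below sham on days 7 and 10 and above it on day 14, at 1.82 times the sham level (1.73 to 1.91). *Serpina3n*, a secreted protease inhibitor, was at 14.8, 14.7, 11.5, and 25.4 CPM in the same order, and day 14 was 1.72 times sham (1.40 to 2.12). *Cd44*, a hyaluronan receptor, was at 2.88, 2.56, 2.35, and 5.72 CPM. These were the 3 genes past the threshold, and 1 was lower on day 10 (*Osmr*, the oncostatin M receptor). The median of the 9 difference went from -0.11 (day 7) and -0.33 (day 10) to 0.42 (day 14), against medians over all genes within 0.006 of 0.

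Against the sham library labelled WT, *Gfap*, *Serpina3n*, and *Cd44* were 1.09, 1.02, and 1.35 higher on day 14 on the log2(CPM + 1) scale. The day 14 level of these genes was therefore above both sham libraries, and the median of the 9 genes was 0.37 against the one labelled WT. Genes listed for the A1 and A2 states of reactive astrocytes moved in part on other days. Of the 12 A1 genes, 3 were higher on day 14 (*Iigp1*, *Amigo2*, and *Psmb8*), beside 2.81% of all genes, with a median of 0.26. Against the sham library labelled WT, however, 1 was higher and the median was 0.09. *Iigp1*, an interferon-inducible GTPase with 6 to 27 reads a library, was already 0.89 higher on day 10, but 0.13 lower against the sham library labelled WT, and 2 A1 genes were lower on day 7. Of the 9 A2 genes compared, 1 was higher and 3 were lower on day 7, 2 were higher and 1 was lower on day 10, and none was past the threshold on day 14. The shares of all genes higher and lower were 2.96% and 5.65% on day 7, and 2.44% and 3.88% on day 10. The higher A2 genes were *Clcf1*, a cytokine of the LIF family (0.73 on day 7 and 0.54 on day 10), and *Ptgs2*, a prostaglandin synthase (0.55 on day 10). The lower ones were *B3gnt5* on both days, and *Cd14* and *Cd109* on day 7. Against the sham library labelled WT, *Ptgs2* was 0.25 higher on day 10. On day 14, *Cd14* was then 1.02 higher and *Emp1* 0.66 lower. The 18 homeostatic astrocyte genes, among them the water channel *Aqp4* and the glutamate transporters *Slc1a2* and *Slc1a3*, had no member past the threshold on any day, with medians of -0.06, -0.11, and -0.01, and of 0.01, -0.05, and 0.07 against the sham library labelled WT. Of the same cytokine family as *Clcf1*, which was at 1.15, 2.56, 2.14, and 1.25 CPM, *Lif* had under 1 CPM in every library labelled TRPA1-KO and *Cntf* had at most 1.34 CPM, and neither was compared.

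Complement genes were above sham on day 14. *C4b*, a component of the classical pathway, was at 47.4 CPM in sham, 29.8 on day 7, 33.3 on day 10, and 99.3 on day 14. It was lowest on day 7 and was 2.095 times the sham level on day 14 (1.88 to 2.34). *C1qb*, a subunit of the initiating complex, was between 26.0 and 30.004 CPM in sham and on days 7 and 10, and at 45.5 CPM on day 14. All 7 complement genes compared (of 9 listed) were above sham on day 14, with a median of 0.45. Past the threshold were 3 of them (*C4b*, *C1qb*, and the receptor *C3ar1*), beside 2.81% of all genes higher on that day. *C3* and *C5ar1* averaged under 1 CPM and were not compared. On day 7 *C3ar1* was higher and *C4b* lower past the threshold, beside 2.96% and 5.65% of all genes, with a median of -0.14. Against the sham library labelled WT neither was past it on day 7, at 0.07 for *C3ar1* and -0.09 for *C4b*. *C3ar1* was at 0.767, 2.34, 0.961, and 2.60 CPM, so that it was 0.92 above sham on day 7 and 1.03 on day 14. In the sham library labelled WT *C3ar1* was at 2.19 CPM, and the day 14 difference from it was 0.17. All 7 genes were again above that library on day 14, 3 past the threshold, with a median of 0.40.

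Of 15 disease-associated microglia genes compared (of 19 listed), 4 were higher past the threshold on day 14, beside 2.81% of all genes. *Cst7*, *Itgax*, *Clec7a*, and *Lgals3* averaged under 1 CPM and were not compared. *Trem2*, a lipid receptor of microglia, was at 7.58 CPM in sham, 9.02 on day 7, 10.8 on day 10, and 18.4 on day 14, which was 2.43 times sham (1.85 to 3.21). *Lyz2*, a lysozyme of myeloid cells, was at 4.12, 3.56, 4.16, and 8.43 CPM. Day 14 was the highest of the 4 libraries for both genes. *Trem2*, *Lyz2*, *Gpnmb*, and *Ccl6* were the 4 genes, while the other 11, *Apoe* and *Ctsb* among them, lay between -0.34 and 0.33. The median of the 15 was 0.06 on day 14, with 9 above sham and 6 below, and 0.27 against the sham library labelled WT, with 5 past the threshold. None of the 15 homeostatic microglia genes passed the threshold on day 14, but 12 were above sham, with a median of 0.35 after -0.23 on day 7 and -0.24 on day 10. Against the other sham library all 15 were above it, 5 past the threshold, with a median of 0.35. *Aif1*, the gene of Iba1, was at 3.45, 3.67, 3.52, and 4.99 CPM, and its day 14 interval of 0.92 to 2.29 times sham includes no change.

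**Figure D2:**
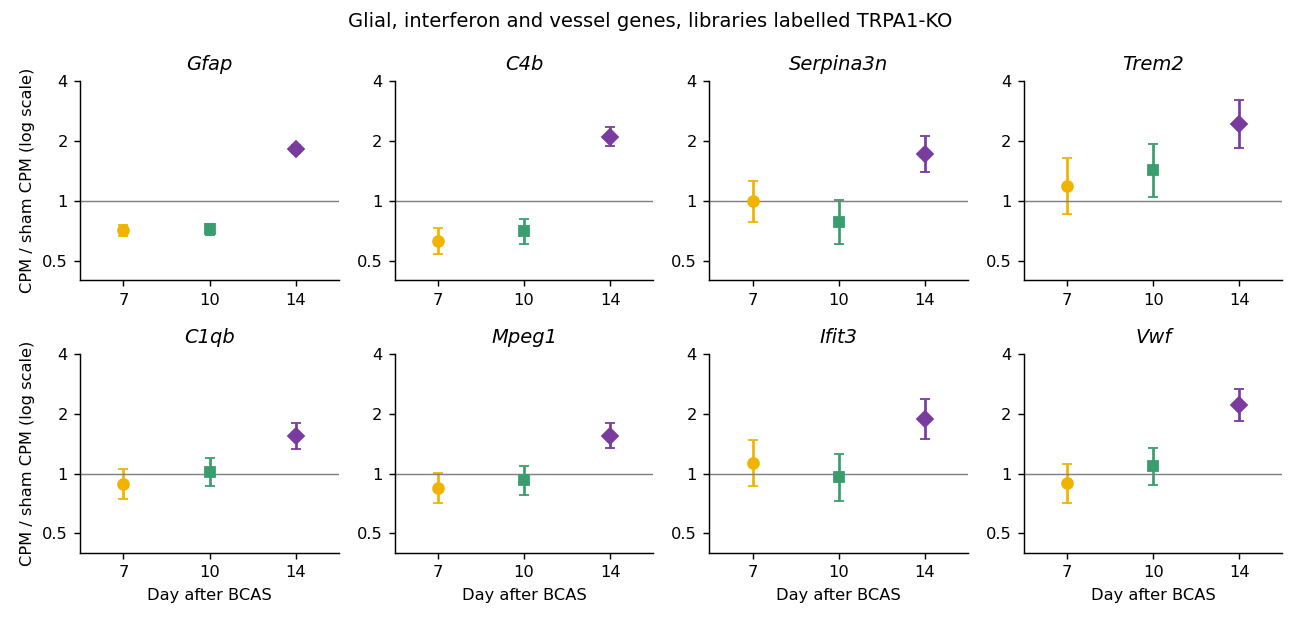
Ratio of CPM to sham (y axis, log scale) on days 7, 10, and 14 after BCAS in libraries labelled TRPA1-KO, with 95% counting intervals as bars and the sham level as a grey line. All 8 genes shown were past the threshold on day 14, so their place above sham on that day follows from the choice. *Gfap* and *C4b* sit below sham on days 7 and 10. Against the sham library labelled WT, *C4b* was -0.09 and 0.06 on these days on the log2(CPM + 1) scale. *Mpeg1* was chosen after its values were seen.

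Of 20 interferon-stimulated genes compared, 9 were higher past the threshold on day 14 (*Ifit1*, *Ifit3*, *Ifit3b*, *Oas1a*, *Ifi27l2a*, *Usp18*, *Bst2*, *Irgm1*, and *Trim30a*), none was lower, and 18 were above sham. Over all genes compared, 2.81% were higher on day 14. On day 7, 2 were higher, and on day 10, 2 were lower. The median went from -0.08 (day 7) and -0.07 (day 10) to 0.45 (day 14). *Ifit3*, an RNA-binding antiviral protein, was at 11.6 CPM in sham, 13.1 on day 7, 11.1 on day 10, and 21.7 on day 14, and day 14 was 1.87 times sham (1.49 to 2.36). Against the sham library labelled WT, 6 were higher (*Ifit3*, *Ifit3b*, *Oas1a*, *Ifi27l2a*, *Bst2*, and *Ifi27*) and the median was 0.22. *Ifit1*, *Irgm1*, *Trim30a*, and *Usp18* were then 0.14, 0.18, 0.20, and 0.01 higher, under the threshold. Most of the members are scarce, and the intervals of *Ifit1*, *Oas1a*, *Usp18*, *Bst2*, and *Ifi27l2a* on day 14 include no change.

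The promoters of the interferon genes are shown because the interferon-stimulated response element, searched on both strands as GAAA, any 2 bases, and GAAA, was found in all 7 of the higher genes that have a promoter in the RefSeq table (GRCm38.p6, 250 bases before to 50 bases after the start). It was found in 5 of the 8 other members compared and in 3.99% of all 27025 promoters. The list is of interferon-stimulated genes, and 12 of its 16 promoters held the element (75%). The matches therefore do not bear on the day 14 levels. *Ifit3* and *Ifit3b* had the same stretch, so the 7 promoters are not all separate. The stretches lie before the start on chromosomes 19 and 11, at chr19:34640745-34640863 and chr19:34583333-34583466 (plus strand) and chr11:48871421-48871490 (minus strand), with matches in capitals, some of them read on the opposite strand.
Ifit1: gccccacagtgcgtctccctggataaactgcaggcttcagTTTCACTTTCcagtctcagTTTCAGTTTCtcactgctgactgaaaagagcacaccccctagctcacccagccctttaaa
Ifit3: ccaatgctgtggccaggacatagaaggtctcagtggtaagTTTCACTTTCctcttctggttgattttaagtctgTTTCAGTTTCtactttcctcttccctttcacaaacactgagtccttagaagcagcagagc
Irgm1: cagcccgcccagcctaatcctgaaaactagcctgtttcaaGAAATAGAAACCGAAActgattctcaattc
Among all genes higher on day 14, 22 of 313 promoters held the element (7.03%), beside 3.50% of the 11759 promoters of all genes compared. The 22 include the 7 interferon-stimulated genes above, so this share is not a separate result. TTCNNNGAA, the STAT motif, was in 30 of the 313 (9.58%), in 8.06% of the promoters of genes compared, and in 9.55% of all promoters. A match is a description of the letters and not a bound site.

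The same lists moved earlier in the libraries labelled WT, which share no library with those labelled TRPA1-KO. Against their own sham, the medians on days 7, 10, and 14 were 1.63, 0.87, and -0.16 for pan-reactive astrocyte genes, 2.19, 0.86, and -0.07 for complement, and 1.64, 0.82, and 0.20 for interferon-stimulated genes. Label TRPA1-KO had its highest median on day 14 in each of these lists, and label WT on day 7. *Gfap* was at 1415 CPM on day 7 with the label WT, so the day 14 level of 427 CPM with the label TRPA1-KO was below it. On day 7, 1385 genes (9.19%) were higher with the label WT. Of the 424 genes higher on day 14 with the label TRPA1-KO, 159 were among them, which is 37.5% of the 424 and 11.5% of the 1385. With 1 library a day, a later response and a difference between single mice cannot be told apart.

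**Figure D3:**
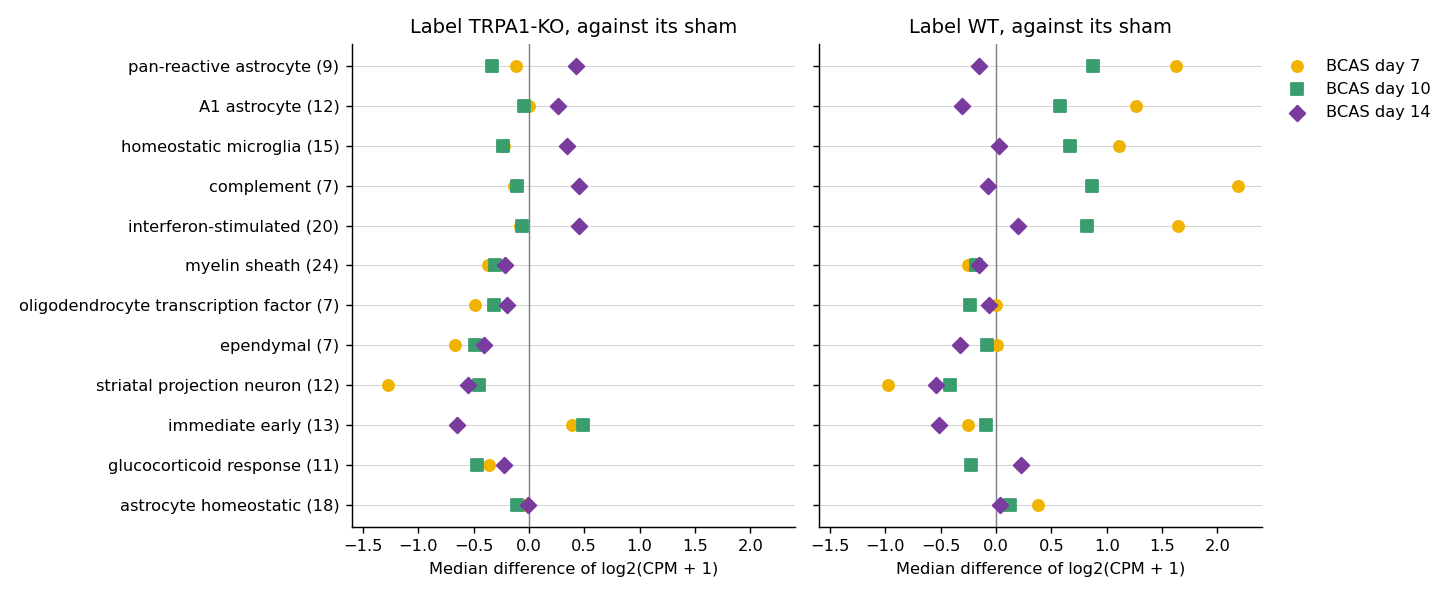
Median difference of log2(CPM + 1) from sham (x axis) for 12 gene lists (number of genes compared in brackets), with 1 symbol per BCAS day, for the label TRPA1-KO (left) and the label WT (right), each against its own sham. The astrocyte, microglia, complement, and interferon lists are furthest right on day 14 on the left and on day 7 on the right.

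Myelin genes were lower than sham, most of all on day 7. *Mbp*, the myelin basic protein, was at 7246 CPM in sham, 5533 on day 7, 5478 on day 10, and 5951 on day 14. *Mog*, a glycoprotein of the outer myelin surface (chromosome 17, 37010740 to 37023398), was at 185, 98.4, 115, and 104 CPM. All 3 BCAS libraries were below sham for both genes. Of 24 myelin sheath genes, 6 were past the threshold on day 7 (*Mog*, *Hapln2*, *Mobp*, *Gal3st1*, *Tspan2*, and *Mal*), 2 on day 10 (*Mog* and *Gal3st1*), and *Mog* alone on day 14. Over all genes compared, 5.65%, 3.88%, and 3.06% were lower on these days. The median went from -0.37 (day 7) and -0.31 (day 10) to -0.21 (day 14), and 22, 24, and 18 of the 24 genes were below sham.

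The size of this difference depended on the sham library. The sham library labelled TRPA1-KO was 0.15 higher than the one labelled WT at the median myelin gene. Against the sham library labelled WT, the myelin medians were -0.23 and -0.15 (days 7 and 10) and -0.0019 (day 14), when 13 genes were below it and 11 above. *Mbp* was then 0.13 lower on day 14. *Mog* was 0.76, 0.54, and 0.68 lower on the 3 days, and was the only myelin gene past the threshold against either sham library on every day. In the libraries labelled WT, the myelin medians against their own sham were -0.25, -0.18, and -0.15, and *Mog* was at 168 CPM in sham and 148 to 154 after BCAS.

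**Figure D4:**
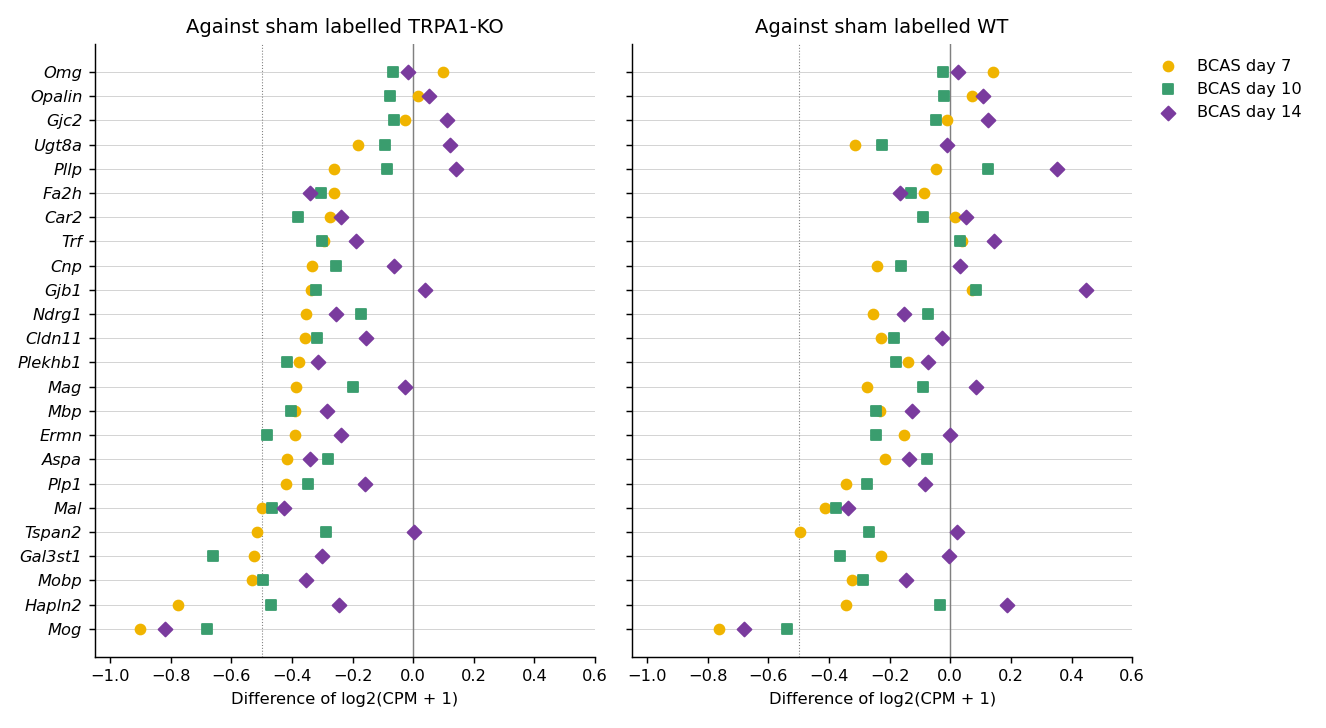
Difference of log2(CPM + 1) (x axis) of 24 myelin sheath genes on BCAS days 7, 10, and 14 with the label TRPA1-KO, against the sham library labelled TRPA1-KO (left) and the one labelled WT (right). The dotted line is the threshold of -0.5. Most genes lie left of 0 on the left, the day 14 genes lie around 0 on the right, and *Mog* lies beyond the threshold in both.

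In the other oligodendrocyte lists, 7 of 26 genes were lower past the threshold on day 7, beside 5.65% of all genes compared. On day 14, 2.81% of all genes were higher. Of 7 transcription factors, 3 were lower past the threshold on day 7 (*Myrf*, *St18*, and *Zfp488*), with medians of -0.48, -0.32, and -0.20 on the 3 days. With the sham library labelled WT as comparator, 3 were again lower on day 7, and the medians were -0.25, -0.19, and 0.13. *Myrf*, which drives myelin gene transcription, was at 168 CPM in sham, 112 on day 7, 128 on day 10, and 146 on day 14. It was lowest on day 7 and closest to sham on day 14, and against the sham library labelled WT it was 0.25 lower on day 7 and 0.13 higher on day 14. Of 10 precursor genes, 2 were lower on day 7 (*Vcan*, a matrix proteoglycan, and *Cacng4*, a glutamate receptor auxiliary subunit). The precursor medians were -0.22, -0.12, and 0.01, and -0.08, -0.06, and 0.11 against the sham library labelled WT. *Pdgfra*, the growth factor receptor of precursors, was at 64.9, 55.7, 56.9, and 62.6 CPM. Of 9 genes of newly formed oligodendrocytes, 2 were lower on day 7 (*Neu4*, a sialidase, and *9630013A20Rik*, a long noncoding RNA) and 2 were higher on day 14 (*9630013A20Rik* and *Tcf7l2*, a transcription factor of Wnt signalling). Their medians were -0.26, -0.22, and -0.01, and -0.33, -0.21, and -0.03 against the sham library labelled WT, where *9630013A20Rik* alone was higher on day 14. *Apc*, the gene of the CC1 antigen, was at 391, 366, 396, and 396 CPM. The 19 cholesterol synthesis genes had no member past the threshold on any day, with medians of 0.25, 0.08, and 0.01.

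The 3 BCAS libraries were also pooled and compared with sham in limma, with the days as replicates and the lone sham library assumed to vary as they do. At an adjusted p under 0.05, 0 of 15069 genes (0%) were called by limma, and edgeR called 0 and DESeq2 called 4. At an unadjusted p under 0.05, limma gave 264 higher genes (1.75%) and 400 lower (2.65%), edgeR 693 genes in all, and DESeq2 265. *Mog* had the smallest p, at -0.80 with a standard error of 0.11 (limma adjusted p = 0.28). *Ppp2r5c* followed at 0.67 with a standard error of 0.10 (limma adjusted p = 0.28), and *Capn11* at -2.73 with a standard error of 0.45 (limma adjusted p = 0.54). These 2 genes differed between the sham libraries by -0.64 and 3.01. At an unadjusted p under 0.05, 15 of the 24 myelin genes were lower, as were 12 of 12 striatal and 4 of 4 hemoglobin genes, of which this sham library held more than the BCAS libraries. The hemoglobin genes *Hba-a1* and *Hba-a2* shared all values and are not separate. With 1 sham library, BCAS and the makeup of that library cannot be told apart in this fit. Without the day 14 library, 179 genes had an adjusted p under 0.05, and without day 7, 18 did.

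Immediate early genes, which neurons transcribe within minutes of activity, were higher on days 7 and 10 and lower on day 14. *Fos* was at 27.2 CPM in sham, 67.8 on day 7, 56.6 on day 10, and 14.6 on day 14. *Egr2* was at 19.5, 23.4, 25.3, and 5.83 CPM, and day 14 was 0.299 times sham (0.219 to 0.404). Of 13 genes compared, 5 were past the threshold above sham on day 7 and 6 on day 10, and 8 were past it below sham on day 14, with medians of 0.39, 0.49, and -0.65. The shares of all genes in the same directions were 2.96%, 2.44%, and 3.06%. Against the sham library labelled WT, the counts were 8 and 7 higher and 7 lower, with medians of 0.63, 0.51, and -0.53. With the label WT, the medians were -0.25, -0.09, and -0.52, which is below sham on all 3 days.

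From day 7 to 10, 589 genes (3.91%) were higher and 355 (2.36%) lower, and from day 10 to 14, 571 (3.79%) were higher and 417 (2.77%) lower. These steps use no sham library. From day 10 to 14, *Gfap* was 2.52 times higher (2.38 to 2.67) and *C4b* 2.98 times higher (2.62 to 3.40), and 5 of the 9 pan-reactive genes, 5 of the 7 complement genes, 6 of the 15 homeostatic microglia genes, and 9 of the 20 interferon genes were past the threshold. Over the same step 11 of the 13 immediate early genes were lower, and *Egr2* and *Fos* had the largest differences among them at -1.95 and -1.89. No myelin gene was past the threshold in either step.

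Past the threshold on day 14 and not on days 7 and 10 were 231 higher (1.53%) and 219 lower genes (1.45%). On day 7 alone there were 238 higher and 496 lower genes, and on all 3 days 66 higher and 90 lower. Among the higher genes of day 14 alone, *Scd3* had the largest difference. This fatty acid desaturase was at 6.14, 7.35, 5.34, and 55.8 CPM, and no other library of the series passed 8 CPM. Its neighbour *Scd4* was at 1.73, 39.4, 0.854, and 0.416 CPM. Each was high in 1 library, and *Scd2*, a close paralog that can share reads with both, was at 2044 to 2184 CPM in all 4. *Vwf*, the endothelial von Willebrand factor, was at 17.5, 15.6, 19.0, and 38.5 CPM, but the sham library labelled WT was at 32.5 CPM, and the day 14 difference from it was 0.24. Of 15 endothelial genes, *Vwf* alone passed the threshold on day 14. Among the lower genes, *Nrgn*, a postsynaptic protein of excitatory neurons, was at 1743, 1594, 1557, and 986 CPM, and *Gstp2*, a glutathione transferase close to *Gstp1*, was at 157, 126, 135, and 63.7 CPM.

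*Zfp966*, *Zfp967*, and *Zfp968*, zinc finger genes of a cluster on chromosome 2, were among the 5 genes furthest below sham on day 14. *Zfp966* (175918283 to 175931100) was at 56.3 CPM in sham, 48.3 on day 7, 20.2 on day 10, and 11.7 on day 14, and shared all its values with *Zfp967*, so that the 2 cannot be told apart. *Zfp968* was at 28.2, 21.6, 15.3, and 7.49 CPM. Both genes were lower in each later library, and every library labelled TRPA1-KO was below every one labelled WT, where *Zfp966* was at 70.2 to 97.3 CPM. *Hjurp* (chromosome 1, 88258856 to 88277644), a centromere chaperone chosen after its values were seen, was at 30.2, 27.2, 26.1, and 50.9 CPM in the libraries labelled TRPA1-KO, while those labelled WT held 80.8 to 103 CPM. Its day 14 level lay between the other libraries labelled TRPA1-KO and those labelled WT. What sets the levels of these genes was not tested.

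By markers of other cells the sham library stood apart. The day 7 library also did so for striatal genes, and the day 7 and day 10 libraries for hemoglobin genes. The 12 striatal projection neuron genes, which mark the region below the corpus callosum, summed to 2593 CPM in sham and to 1113, 1775, and 1744 CPM on days 7, 10, and 14, and to 1930 CPM in the sham library labelled WT. All 12 were lower than sham past the threshold on day 7, 5 on day 10, and 7 on day 14, and against the other sham library 12, 0, and 0. Over all genes, 5.65%, 3.88%, and 3.06% were lower than sham on these days. The day 7 library was thus below both sham libraries, on the day when myelin genes were lowest, and with the label WT the day 7 sum was also the lowest, at 1013 CPM. *Hba-a1*, a hemoglobin chain of red blood cells, was at 75.2 CPM in sham, 0.334 on day 7, 2.99 on day 10, and 27.2 on day 14. Against the other sham library it was 4.16 and 2.58 lower on days 7 and 10, and 0.23 higher on day 14. Sham was the highest of the 4 libraries for all 12 striatal and all 4 hemoglobin genes compared. *Hba-a1* and *Hba-a2* shared all values, so the 4 hemoglobin genes are not all separate. *Plin4*, a lipid droplet protein in the glucocorticoid response list, was at 61.6, 7.01, 10.1, and 36.1 CPM, and the 11 genes of that list had medians of -0.36, -0.47, and -0.22. Against the other sham library, *Plin4* was 2.18 and 1.70 lower on days 7 and 10. The medians of the list were then -0.04, -0.19, and -0.10. The 7 ependymal genes compared had medians of -0.67, -0.49, and -0.41, and of 0.0028, 0.11, and -0.20 against the other sham library. All 10 pan-neuronal genes were above sham on day 7, none past the threshold, with medians of 0.23, 0.06, and 0.01, and of 0.11, -0.04, and -0.07 against the other sham library. Of 11 cortical excitatory neuron genes, 10 were above sham on day 7, *Fezf2* past the threshold, with medians of 0.29, 0.10, and 0.08, and of 0.12, -0.03, and -0.11 against the other sham library. The part of tissue makeup in the myelin, immediate early, and glial differences was not tested.

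**Figure D5:**
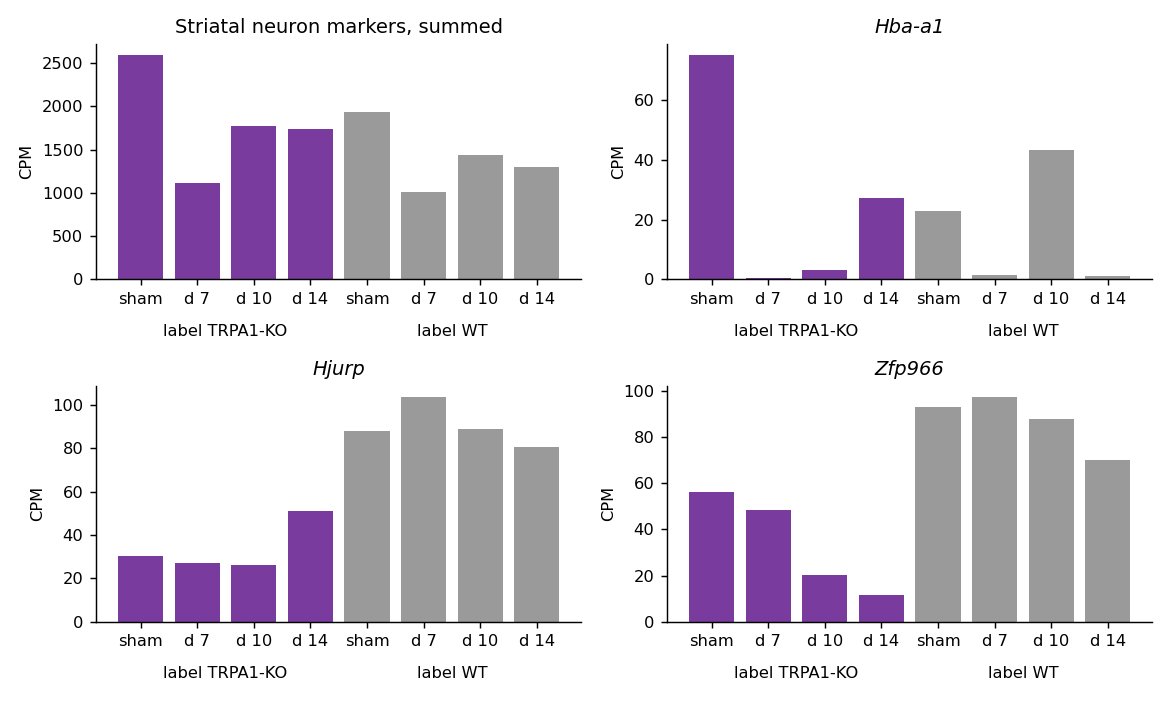
CPM (y axis) in the 8 libraries, purple for the label TRPA1-KO and grey for the label WT, of 12 summed striatal neuron markers, *Hba-a1*, *Hjurp*, and *Zfp966*. The sham library labelled TRPA1-KO is highest for the striatal sum at 2593 CPM and for *Hba-a1* at 75.2 CPM, and *Hjurp* and *Zfp966* are lower in every library labelled TRPA1-KO than in those labelled WT.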

How the data were processed

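The authors selected polyadenylated RNA, mapped reads to GRCm38 with HISAT2, counted them per gene with featureCounts, and normalized them with edgeR. The annotation, strand setting, and gene filter were not given in the sources used here. The deposited signal is a count scaled to CPM with edgeR's effective library sizes, without logs. In each library 100% of values equalled a whole number of reads (tolerance 1e-06 reads), and these reads were recovered. Of the symbols compared, 84 share all values with another symbol.

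Differences of log2(CPM + 1) were computed for genes averaging 1 CPM or more in these libraries. The BCAS libraries together were compared with sham with limma version 3.58.1 (trend, two-sided, Benjamini-Hochberg adjustment) in R version 4.3.3, and, on the recovered reads, edgeR version 4.0.16 and DESeq2 version 1.42.0. The scripts were tested on simulated data. Each BCAS library had its own day and sham had 1 library. The p-values therefore measure the spread among the BCAS libraries, of days and mice together, and not that between sham mice.

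The members and gene lists were chosen with earlier results of these data known. Named were, by rule, the 5 genes per direction with the largest difference in a day, a step, or on day 14 alone (mean of at least 10 CPM), list members past the threshold or with the highest mean, the genes of stained proteins, and the genes with the smallest pooled p, of which the text gives a part. *Hjurp*, *Mpeg1*, *Scd2*, and *Gstp1* were chosen after their values were seen, as were the comparisons with the sham library labelled WT, the choice of list medians followed through all settings, and the limit of those settings to genes and lists given here. Positions and promoters come from RefSeq GRCm38.p6.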

Additional observations from a re-analysis of the deposited data

Results flagged for a closer look

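In 5 results all 3 BCAS days lay on one side of sham with the label TRPA1-KO and on the other side with the label WT, which was not tested. The medians over the 3 days with the label TRPA1-KO were -0.056 for the homeostatic astrocyte list, -0.33 for *Hspa1b*, -0.58 for *Nlrc5*, 0.25 for *Npas4*, and -0.35 for *Tagln*. The 3 days of a label share 1 sham library. Against the sham library labelled WT, these days lay on both sides for 3 of the 5. The values were 0.01, -0.05, and 0.07 (the list), 0.35, 0.54, and -0.02 (*Hspa1b*), and -0.11, 0.16, and -0.26 (*Npas4*). *Nlrc5* and *Tagln* stayed below it. With the label WT, *Tagln* was only 0.0023 and 0.011 above sham on days 10 and 14. Single genes were listed only where a day of each label passed the threshold, a limit added after seeing the data.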

How the results depend on the processing

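Counts of genes and list medians both depended on the settings. A count and a median are on different scales, so which depended more was not tested. For the genes and lists given here, 128 of 1332 values under alternatives had the other sign. In 21 of these the reported difference was past the threshold (a gene) or larger than that between the sham libraries (a list median), and 16 of the 21 were against the sham library labelled WT, a comparator added after seeing the data. The hemoglobin median on day 14 was not among the 21, and went from -1.23 to 0.39 against that library. The counts on days 7, 10, and 14 were 439, 213, and 180 with a mean of at least 10 CPM and 136, 50, and 81 at a threshold of 1, and those of the steps were 192 and 221, and 65 and 109. The genes past the threshold on day 14 alone numbered 36 higher and 52 lower with the filter at 10 CPM, 33 and 23 at a threshold of 1, and 426 higher with no filter. With a pseudocount of 0.1 the counts were 1497 on day 10, 1424 on day 14, and 1484 and 1580 in the steps. With no filter the day 14 count was 1356. Against the mean of both shams it was 856 on day 7 and 605 on day 10.

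On day 14 the pan-reactive astrocyte median was 0.27 with no filter and 0.58 at 10 CPM, the complement median 0.61 with a pseudocount of 0.1 and 0.53 with members of 1 list only, and the interferon median 0.60, 0.32, and 0.35 with a pseudocount of 0.1, at 10 CPM, and against both shams. The interferon median on day 7 turned to 0.11 at 10 CPM. The A1 median on day 14 turned to -0.024 at 10 CPM. The A2 median on day 7 turned to -0.093 against both shams and -0.064 with members of 1 list only. The immediate early median on day 7 was 0.53 against both shams, and *Hjurp* on day 14 turned to -0.021.

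Against the sham library labelled WT, the medians were 0.40 for complement and 0.22 for interferon genes on day 14, -0.15 and -0.0019 for myelin on days 10 and 14, 0.63 for immediate early genes on day 7, and -0.19 for glucocorticoid genes on day 10. The A2 median turned to -0.0013 and -0.024 on days 7 and 14, and the ependymal median to 0.0028 and 0.11 on days 7 and 10. *Hba-a1* (0.23), *Hjurp* (-0.78), and *Plin4* (0.035) turned on day 14, and *Iigp1* (-0.13) and *Scd4* (0.34) on day 10. With the filter at 10 CPM as well, also added, the day 14 medians were 0.79 for pan-reactive, -0.22 for A1, 0.51 for complement, 0.39 for interferon, 0.22 for ependymal, and -0.50 for immediate early genes. Those of day 7 were 0.15 for interferon, 0.060 for ependymal, and 0.64 for immediate early genes, and those of day 10 were 0.0084 for complement, 0.075 for interferon, 0.15 for ependymal, and -0.18 for glucocorticoid genes. The myelin medians stayed at -0.15 and -0.0019. The cause was not tested.

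In the pooled fit, leaving out 1 BCAS library gave 0 to 179 genes with an adjusted p under 0.05 and 355 to 1386 with an unadjusted one. Both shams gave 1 called gene, and DESeq2 gave 4, with 265 at an unadjusted p under 0.05. No paired analysis was possible because each label, operation, and day had 1 library.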
